A study of Mus musculus with 4 samples.

Results

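Adult neurogenesis in the hippocampus was followed here through 9 genes that mark its stages: Dcx, Sox11, Igfbpl1, Eomes, Draxin, Neurod1, Prox1, Calb1 and Sox4. They were chosen by gene symbol, all 9 were present in each library, and they are 9 of the 32285 genes counted. The measurement was single-nucleus RNA sequencing of frozen hippocampus, in which each RNA molecule caught from a nucleus carries a unique molecular identifier (UMI). The 4 groups were wild type (WT) and APPNL-G-F mice, each without and with exercise. All mice were female, on the C57BL/6J background, 8 weeks old at the start and studied over 10 weeks. APPNL-G-F mice carry a humanised and mutated amyloid precursor protein sequence knocked into the mouse App gene, so the protein is made under the gene's own control and not from a transgene. Exercise was voluntary wheel running. The protocol text names a running wheel for every sample, while the sample titles and treatment labels set apart the samples without exercise, and those labels were used. Each group was a single library, the number of animals behind each library was not given in the sources used here, and no difference between groups has a replicate check or a test. Series of 4 values below follow the order WT without exercise, WT with exercise, APPNL-G-F without exercise and APPNL-G-F with exercise.

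In the adult mouse, granule neurons of the dentate gyrus continue to be formed from radial glia-like stem cells in the subgranular zone. Stem cells give rise to dividing intermediate progenitors that express the T-box factor Eomes (Tbr2), then to neuroblasts and immature neurons that express the microtubule-associated protein doublecortin (Dcx), and these mature into granule cells that express the calcium-binding protein calbindin (Calb1). The basic helix-loop-helix factor Neurod1 and the SoxC factors Sox4 and Sox11 act during neuronal differentiation, and the homeobox factor Prox1 marks the granule lineage from progenitor to mature cell. Draxin is a secreted axon guidance protein. Igfbpl1 encodes a secreted protein related to the insulin-like growth factor binding proteins.

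Positions are given on GRCm38 (mm10). Dcx (ENSMUSG00000031285) lies on the minus strand of chrX:143855842-143933311, Sox11 (ENSMUSG00000063632) on the minus strand of chr12:27334264-27342574 and Sox4 (ENSMUSG00000076431) on the minus strand of chr13:28948919-28953713. Igfbpl1 (ENSMUSG00000035551) lies on the minus strand of chr4:45809468-45826923, Draxin (ENSMUSG00000029005) on the minus strand of chr4:148098437-148130698 and Calb1 (ENSMUSG00000028222) on the plus strand of chr4:15881264-15908064. Prox1 (ENSMUSG00000010175) spans chr1:190118035-190170714 on the minus strand, Neurod1 (ENSMUSG00000034701) chr2:79452521-79456751 on the minus strand and Eomes (ENSMUSG00000032446) chr9:118478212-118486132 on the plus strand. Prox1 is overlapped on the other strand by Prox1os and Gm28172, Draxin by Mad2l2 and Eomes by Gm33460, and Neurod1 is overlapped by Cerkl on its own strand. Whether the counting used strand was not given in the sources used here, so reads shared with these genes cannot be told apart. Sox4 and Sox11 are paralogs.

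The stretch just before the transcription start is shown for 4 of the genes whose level was highest in the immature neuron-like nuclei described further on, so that their letters can be compared. The sequences are from RefSeq (GRCm38.p6), are written 5′ to 3′ on the gene's strand, and have in capitals every E-box, the letters CANNTG that basic helix-loop-helix factors such as Neurod1 bind. The motif reads the same on both strands.
Prox1 (chr1:190170828-190171077, minus strand): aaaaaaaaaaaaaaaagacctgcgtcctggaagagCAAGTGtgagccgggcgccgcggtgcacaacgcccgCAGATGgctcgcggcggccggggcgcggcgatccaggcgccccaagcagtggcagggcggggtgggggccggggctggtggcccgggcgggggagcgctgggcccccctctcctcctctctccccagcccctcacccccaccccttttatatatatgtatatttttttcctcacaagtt
Sox11 (chr12:27342719-27342968, minus strand): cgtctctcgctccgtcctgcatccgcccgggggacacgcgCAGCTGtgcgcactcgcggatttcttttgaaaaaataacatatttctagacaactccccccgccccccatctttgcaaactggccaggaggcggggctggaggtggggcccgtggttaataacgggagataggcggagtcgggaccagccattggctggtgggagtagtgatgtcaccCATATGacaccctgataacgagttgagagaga
Draxin (chr4:148130699-148130948, minus strand): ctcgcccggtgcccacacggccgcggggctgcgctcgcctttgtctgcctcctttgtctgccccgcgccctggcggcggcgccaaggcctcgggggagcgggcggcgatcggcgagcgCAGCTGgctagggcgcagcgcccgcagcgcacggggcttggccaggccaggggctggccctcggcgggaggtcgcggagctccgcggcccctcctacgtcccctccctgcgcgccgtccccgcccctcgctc
Dcx (chrX:143933312-143933469, minus strand): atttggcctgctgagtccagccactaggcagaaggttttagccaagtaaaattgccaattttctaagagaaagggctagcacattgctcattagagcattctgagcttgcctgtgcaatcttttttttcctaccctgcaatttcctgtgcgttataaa
The Prox1 stretch held CAAGTG and CAGATG, the Sox11 stretch CAGCTG and CATATG, and the Draxin stretch CAGCTG. No CANNTG was found in the 158 bases printed for Dcx. An E-box was present in 66.23% of 32841 promoter stretches of 250 bases and in 51.06% of those shortened to 158 bases. CAGATG or its reverse complement, found before Prox1, occurred in 14.45% of the stretches of 250 bases. Of the 9 genes, 7 had an entry, and those without one were Igfbpl1 and Calb1. A match describes letters only.

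The libraries held 11514, 7203, 10453 and 9466 barcodes and 91676884, 66573909, 64158446 and 76111556 UMIs. After filters on genes, UMIs, mitochondrial share and likely doublets, 34744 nuclei were kept (10213, 6508, 9278 and 8745), with median depths of 6414, 7392, 5114.5 and 6136 UMIs. Pairs of libraries shared between 20 and 42 barcodes. Nuclei were clustered without the 9 genes, and clusters were named from marker lists that do not contain them. This gave 16 named classes, and 2452 nuclei (7.06%) stayed unnamed. The libraries differed in the nuclear RNA Malat1, with 32127, 60542, 95150 and 33476 counts-per-million (CPM, the gene's UMIs scaled to a common total of UMIs), and in Ttr, a choroid plexus transcript used as a sign of free RNA, with 5.77, 2.99, 184.5 and 0.449 CPM. Hbb-bs, a haemoglobin transcript of red blood cells, was at 5.84, 14.8, 24.7 and 0.681 CPM. The part of these differences in the results below was not tested.

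Most nuclei that carried a neurogenesis marker were not immature granule neurons. A nucleus is called a carrier of a gene when it held at least 1 of its UMIs. Dcx was carried by 5591 of the 34744 nuclei (16.1%), Sox11 by 3596 (10.4%), Prox1 by 10653 (30.7%) and Calb1 by 7325 (21.1%). Sox4 was carried by 1585 nuclei (4.56%) and Neurod1 by 1069 (3.08%). Igfbpl1 (236 nuclei, 0.679%), Draxin (58, 0.167%) and Eomes (15, 0.0432%) were rare. Carriers were mostly carriers by a single molecule: 66.8% of the Dcx carriers, 81.4% of the Sox11 carriers and 93.7% of the Neurod1 carriers held exactly 1 UMI. None of the 9 genes was seen in 14550 nuclei (41.9%).

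Dcx was highest in the immature granule neuron-like nuclei and next highest in inhibitory neurons. Levels are given as CPM within the class, as the mean over the 4 libraries with their range. Dcx reached 320 (178 to 511) in the immature class, 150 (147 to 154) in inhibitory neurons of the caudal ganglionic eminence lineage (CGE), 143 (111 to 164) in those of the medial ganglionic eminence lineage (MGE) and 100.5 (91.3 to 119) in Lamp5 inhibitory neurons. The range of the immature class did not overlap that of the CGE class. The immature values rest on 3, 7, 4 and 17 Dcx UMIs from 2, 4, 10 and 20 nuclei, so this gap is not clear of counting error. The CGE, MGE and Lamp5 classes overlapped from each to the next, and the Lamp5 class did not overlap the oligodendrocyte precursors below it at 70.1 (60.4 to 83.9). Mature dentate granule-like nuclei were at 14.3 (12.7 to 15.3), 12th of the 16 classes and below microglia at 32.0 (23.2 to 41.8).

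By carriers, 69.1%, 64.0%, 65.8% and 60.4% of the MGE nuclei held a Dcx UMI. The matching shares were 8.00%, 7.64%, 6.24% and 9.63% in dentate granule-like nuclei and 9.20%, 19.2%, 8.15% and 7.76% in microglia-like nuclei, a class that should lack the gene. Their median depths differed: 9116, 10530, 6732 and 9993 UMIs in MGE nuclei, 6169, 6778, 4594.5 and 6731 in granule-like nuclei and 1762, 6162, 1526.5 and 2686 in microglia-like nuclei. With every nucleus thinned to 1500 UMIs, Dcx was seen in 24.9%, 19.7%, 21.3% and 14.7% of MGE nuclei, in 2.50%, 1.41%, 2.33% and 1.96% of granule-like nuclei and in 2.59%, 2.50%, 4.3% and 3.08% of microglia-like nuclei. The thinned microglial shares rest on 116, 40, 93 and 325 nuclei. The thinned granule-like shares were not above them in any library, whereas the MGE shares were above them in each library. Microglia-like nuclei also held dentate granule markers at a summed 2334 to 2802 CPM, which limits them as a measure of free RNA. The part of free RNA in these shares was not tested.

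Sox11 separated the immature class more sharply from the rest. It reached 346 CPM (275 to 438) there, against 33.2 (22.9 to 45.4) in Cajal-Retzius nuclei, 27.7 (20.5 to 35.7) in oligodendrocyte precursors and 22.8 (18.5 to 24.8) in dentate granule-like nuclei. The 5 classes from Cajal-Retzius to dentate granule-like overlapped from each to the next. Microglia stood at 15.3 (11.0 to 18.4), just below the granule-like range. Its paralog Sox4 had another distribution: committed oligodendrocyte precursors were highest at 263 (160 to 372), and oligodendrocyte precursors at 55.8 (33.5 to 103) overlapped the immature class at 45.8 (0 to 89.1), in which 5 Sox4 UMIs were counted in all. In dentate granule-like nuclei Sox4 was at 4.77 (3.97 to 5.94), below microglia at 23.0 (14.6 to 37.5).

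Among the named classes Igfbpl1 was high in the immature class alone. It reached 533 CPM (275 to 876) there and 3.78 (0 to 15.1) in Cajal-Retzius nuclei, the next highest of the named classes. All other named classes were below 2 on average, with 0.589 (0.153 to 0.802) in dentate granule-like nuclei. Draxin was highest in the immature class at 26.8 (0 to 62.7) and in Cajal-Retzius nuclei at 13.3 (0 to 22.7), from 7 and 8 UMIs, and these overlapped. Eomes gave 17 UMIs in 15 nuclei. None lay in the immature class, 8 lay in an unnamed cluster led by Ebf2, and Cajal-Retzius nuclei held 2.

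Prox1 and Calb1 were the granule genes, but with different peaks. Prox1 was at 686 CPM (490 to 876) in the immature class, 242 (221 to 266) in dentate granule-like nuclei, 161 (139 to 195) in oligodendrocytes and 79.3 (66.8 to 88.4) in CGE neurons, and none of the first 3 overlapped the next. Microglia were at 65.4 (47.4 to 94.2). Calb1 was highest in dentate granule-like nuclei at 95.8 (73.6 to 122), with CA1 pyramidal neurons next at 42.4 (28.0 to 49.0) and no overlap between them. In the immature class 3 Calb1 UMIs were counted (16.4, 0 to 44.6). Neurod1 was at 66.4 (10.5 to 138) in the immature class, from 4 UMIs, and at 7.48 (6.55 to 8.90) in dentate granule-like nuclei, where it overlapped microglia at 5.76 (2.09 to 9.22).

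**Figure D1:**
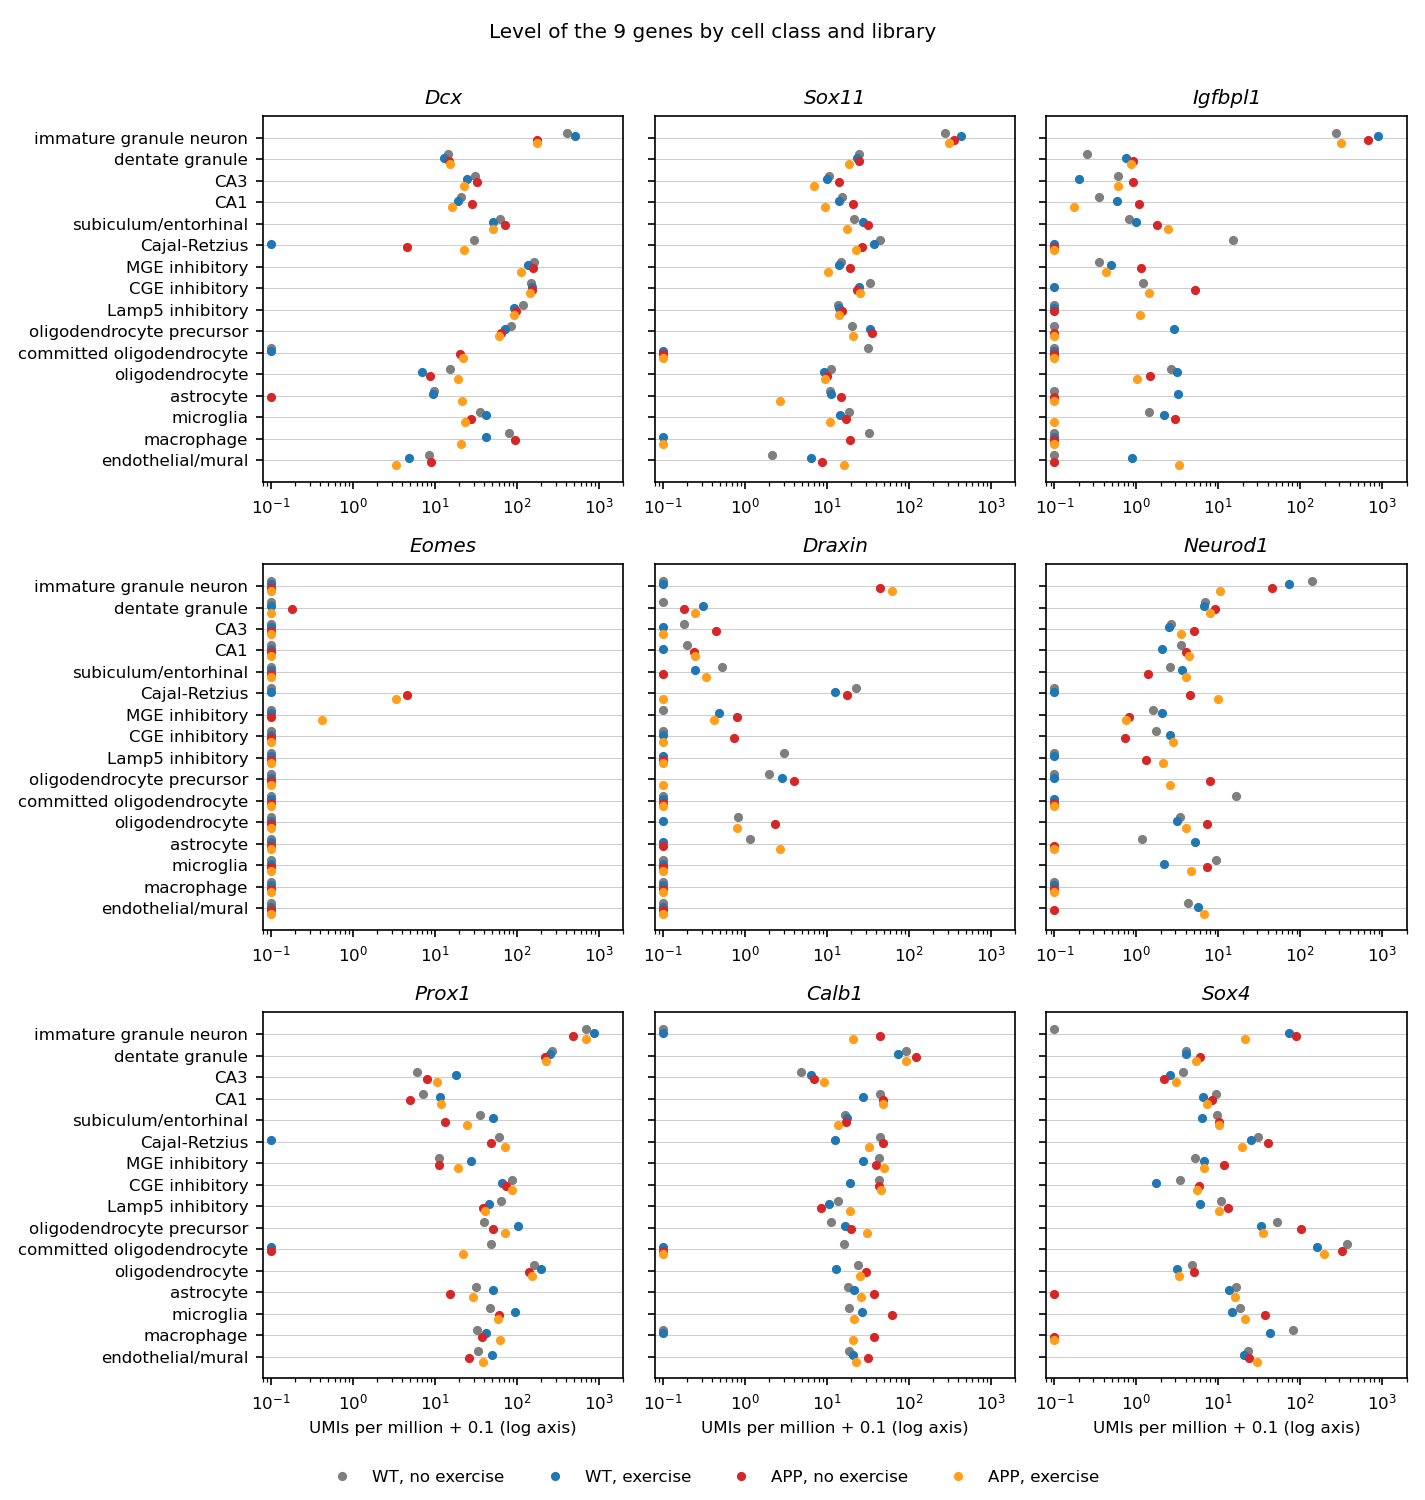
Level of each of the 9 genes (CPM plus 0.1, log axis) in 16 named classes, 1 point per library. Igfbpl1 and Sox11 stand apart in the immature granule neuron-like class, Dcx is also high in the 3 inhibitory classes, Sox4 peaks in committed oligodendrocyte precursors, and Calb1 peaks in dentate granule-like nuclei.

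More nuclei held a single member (3598, 2288, 3279 and 3232) than held several. Prox1 was the only member seen in 5129 nuclei, Dcx in 2697, Calb1 in 2334 and Sox11 in 1161, and the commonest pair was Prox1 with Calb1 and nothing else, in 2530. Of the carriers, 48.2% for Dcx, 48.1% for Prox1, 32.3% for Sox11 and 25.0% for Igfbpl1 held no other member. At least 5 of the 9 genes were seen in 75 nuclei (24, 31, 6 and 14). Igfbpl1 carriers held Dcx and Sox11 more often than all kept nuclei did. Of the 236, 95 also held Dcx (40.3%, against 16.1% of all kept nuclei) and 71 held Sox11 (30.1%, against 10.4%), while 43 held Calb1 (18.2%, against 21.1%). Dcx carriers held Sox11 in 16.5% of cases, also above that 10.4%. Neurod1 carriers held Prox1 in 487 of 1069 cases, where 30.7% of all kept nuclei did. Carriers were deeper nuclei, with medians of 8829 UMIs for Dcx, 8084 for Sox11 and 7489 for Igfbpl1 against 6083.5 for all kept nuclei, and the part of depth in these shares was not tested.

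Within dentate granule-like nuclei, Dcx carriers held the other members nearly as often as all nuclei of the class did. Sox11 was held by 14.9% of the 805 Dcx carriers and 12.3% of all granule-like nuclei, and Prox1 by 68.6% of the Dcx carriers and 69.2% of all. Calb1 was held by 39.9% of the Dcx carriers and 38.5% of all. The 31 Igfbpl1 carriers stood apart from this: 27 held Prox1 (87.1%, against 69.2% of the class), 8 held Sox11 (25.8%, against 12.3%) and 6 held Dcx (19.4%, against 7.92%). In the 3 inhibitory classes 206 of the 327 Sox11 carriers also held Dcx (63.0%), where 58.6% of all those nuclei did.

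**Figure D2:**
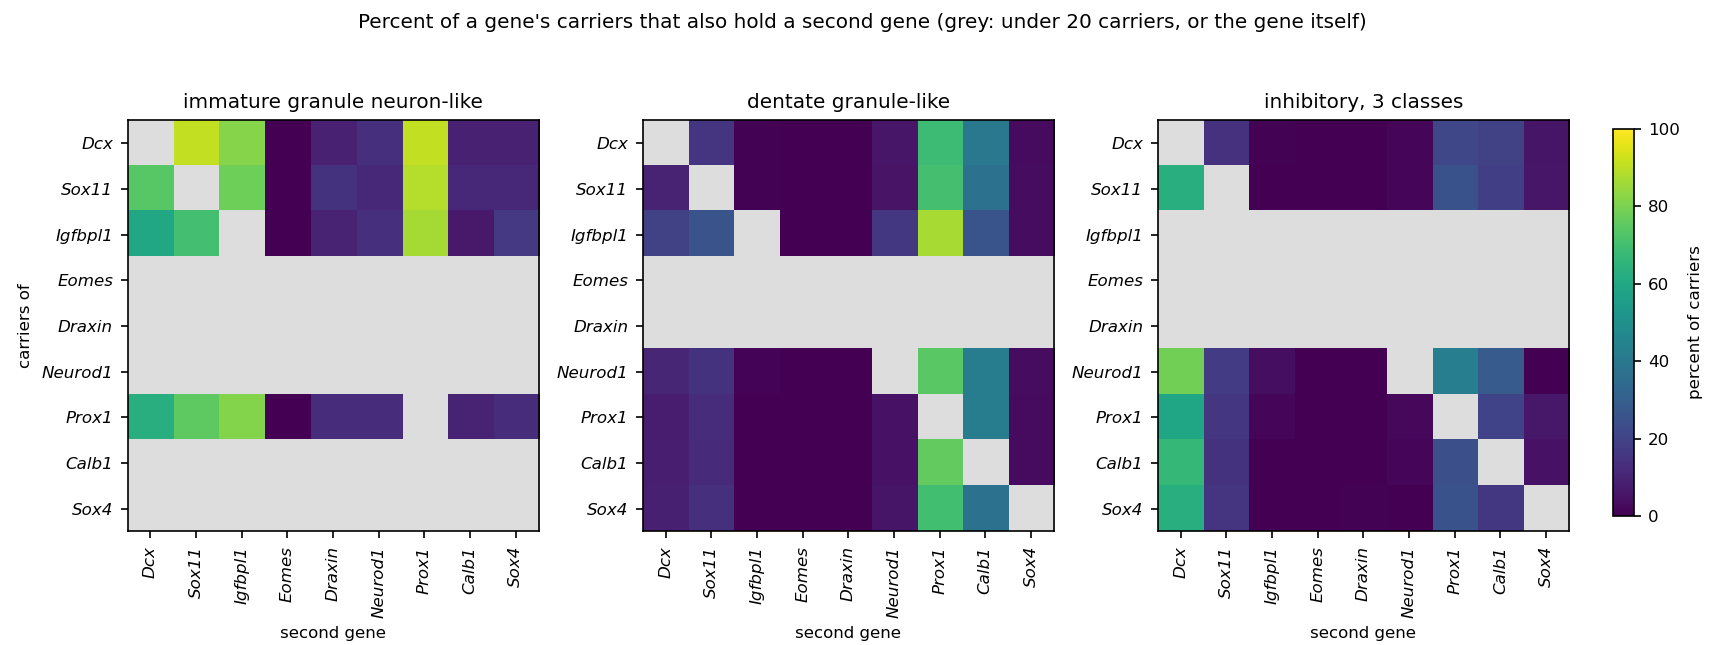
Percent of the carriers of 1 gene (vertical axis) that also held a second gene (horizontal axis) in immature granule neuron-like, dentate granule-like and inhibitory nuclei, summed over the 4 libraries; grey marks genes with under 20 carriers. Dcx, Sox11, Igfbpl1 and Prox1 share carriers in the immature class, with 90.9% of Dcx carriers holding Sox11 against 14.9% in dentate granule-like nuclei.

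The immature granule neuron-like class held 36 nuclei, 2, 4, 10 and 20 by library. It was named from 4 of 12 markers and was led by Pappa2, Adamts18 and Sema3c. All its nuclei came from 1 first-round cluster of 819 nuclei, of which 578 were from APPNL-G-F with exercise, and their median depth was 3722 UMIs. The summed level of the 12 naming markers was 876 to 1506 CPM over the 4 libraries, against 73.1 to 90.7 in dentate granule-like nuclei. Granule markers were lower (949 to 2479, against 6149 to 7485), with Dsp and Plk5 at 0. Of the 8 neural progenitor markers, 7 were at 0, among them Top2a and Cdk1. The summed level of oligodendrocyte precursor markers was 413 to 858, below the 971 to 1425 of dentate granule-like nuclei. Of 9 microglial markers 7 were at 0, and their summed level was 0, 0, 44.6 and 41.8 against 36.1, 31.3, 62.4 and 33.0. MGE markers were higher than in granule-like nuclei in each library, at 551, 511, 223 and 418 against 164, 124, 131 and 227. Lamp5 markers were at 689, 219, 44.6 and 136 against 111, 76.8, 94.5 and 102. Oligodendrocyte markers were at 0, 73.0, 846 and 314 against 422, 408, 496 and 494. Choroid plexus markers were at 0, 0, 356 and 10.5 against 26.4, 20.8, 77.5 and 28.5.

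Although the 9 genes had no part in the clustering or the naming, most nuclei of this class carried several of them. Prox1 was seen in 32 of 36 nuclei, Igfbpl1 in 30, Sox11 in 27 and Dcx in 22. Sox4 was seen in 5, Draxin and Neurod1 in 4 each, Calb1 in 3 and Eomes in 0. In the library with 20 such nuclei, 0 carriers, taken as under 3, allows a share of up to 15% of nuclei with an Eomes UMI. By library, Igfbpl1 was carried by 1 of 2, 4 of 4, 8 of 10 and 17 of 20 nuclei, Prox1 by 2, 4, 7 and 19, Sox11 by 2, 4, 7 and 14, and Dcx by 2, 4, 4 and 12. Each of these 4 genes was thus present in every library's nuclei of the class. The genes also met in the same nuclei: 20 of the 22 Dcx carriers held Sox11, 20 held Prox1, and 26 of the 30 Igfbpl1 carriers held Prox1. After thinning to 1500 UMIs, 22 of 35 nuclei held Prox1, 20 Igfbpl1, 14 Sox11 and 13 Dcx.

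Set beside dentate granule-like nuclei, with all 4 libraries summed, the class held 424 against 0.562 CPM for Igfbpl1, 331 against 22.6 for Sox11, 223 against 14.4 for Dcx and 676 against 244 for Prox1. Calb1 went the other way, with 21.6 against 94.8. These values describe a cluster and carry no test, because genes that vary with the 9 did enter the clustering. Other genes of the neighbouring stages were read beside them. Dpysl3, a cytoskeletal protein of growing neurites that was not among the naming markers, stood at 295 against 11.0, and Nnat, a small membrane protein of developing neurons, at 266 against 36.5. Among genes of mature granule cells, the kinase gene Camk2a stood at 439 against 1659 and the adhesion molecule Icam5 at 71.9 against 161. Rbfox3, which encodes the neuronal nuclear antigen NeuN, was at 604 against 779. Sox2 and Nes, genes of the stem cell stage, had no UMI in the class. Summed, the 12 radial glia-like genes gave 0, 1, 0 and 4 UMIs there, or 0, 73.0, 0 and 41.8 CPM. In dentate granule-like nuclei they were at 52.9, 49.3, 52.4 and 61.9, so these low counts say little.

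By library, the class made up 0.0196% (95% exact interval 0.00237 to 0.0707), 0.0615% (0.0167 to 0.157), 0.108% (0.0517 to 0.198) and 0.229% (0.140 to 0.353) of kept nuclei. All intervals here are for counting error only and leave out the spread between animals. Ratios between groups are not given for these sizes, since a gene that led the cluster, Sema3c, itself differed between the libraries in dentate granule-like nuclei, at 1.37, 1.85, 1.20 and 2.94 CPM, and 20 of the 36 nuclei came from a single library.

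A count that needs no clustering is that of nuclei with Igfbpl1, Prox1 and either Dcx or Sox11. This combination was chosen after its members had been seen together in the immature class. It was held by 7, 16, 5 and 21 nuclei, or 0.0685% (0.0276 to 0.141), 0.246% (0.141 to 0.399), 0.0539% (0.0175 to 0.126) and 0.240% (0.149 to 0.367) of kept nuclei. Both exercise libraries were above both libraries without exercise. The log2 ratio of the shares was 1.84 (0.48 to 3.37) for exercise in WT and 2.16 (0.71 to 3.92) for exercise in APPNL-G-F, and for APPNL-G-F over WT it was -0.35 without exercise and -0.03 with exercise. Of these nuclei 1, 4, 2 and 13 lay in the immature class and 0, 4, 1 and 5 in the dentate granule-like class. The rest lay outside both classes, among them most of the 7 nuclei of WT without exercise. The count and its ratios are therefore not those of granule lineage nuclei alone. After thinning to 1500 UMIs the counts were 3, 4, 0 and 4, too few to order the libraries. With a stricter doublet rate of 1.6% per 1000 nuclei they were 1, 15, 4 and 19, so the WT library without exercise fell from 7 nuclei to 1 and the log2 ratio for exercise in WT rose to 4.49 (1.79 to 9.89).

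**Figure D3:**
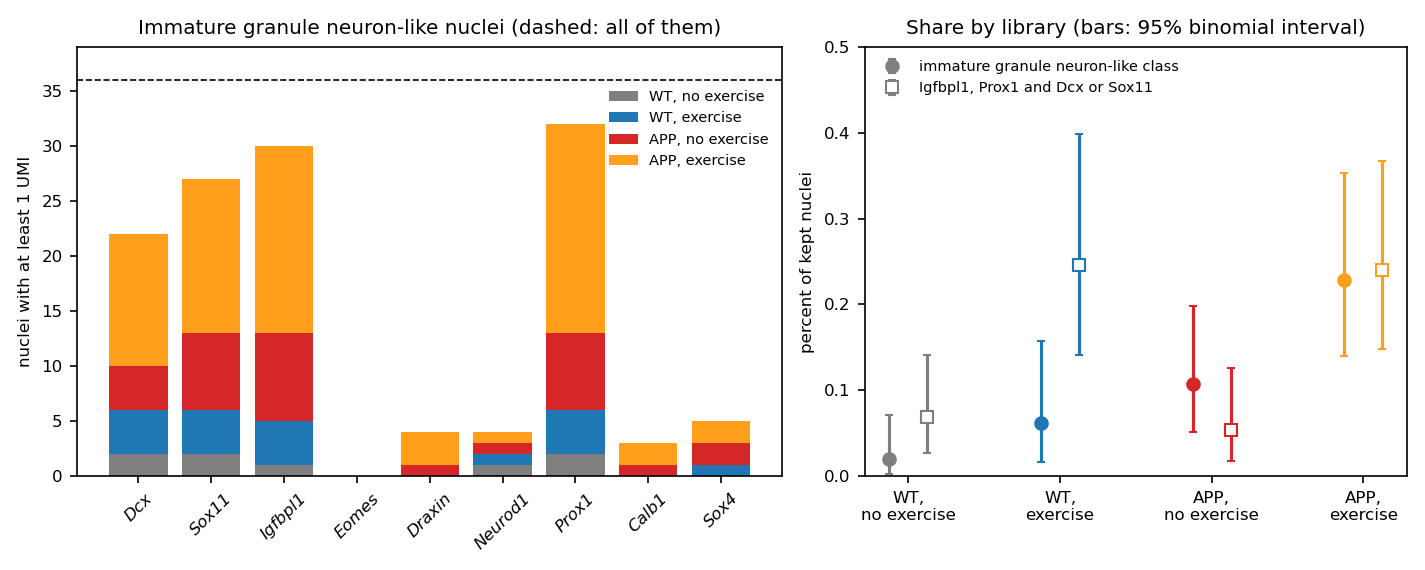
Left, number of the 36 immature granule neuron-like nuclei with at least 1 UMI of each gene, stacked by library; right, percent of kept nuclei in that class (filled circles) and with Igfbpl1, Prox1 and Dcx or Sox11 (open squares), with 95% exact binomial intervals for counting error. Prox1, Igfbpl1, Sox11 and Dcx are in 22 to 32 of the 36 nuclei, and the open squares of both exercise libraries lie near 0.24%.

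A looser count was nuclei with at least 2 of Dcx, Sox11, Igfbpl1 and Draxin. There were 1014 of them, and 872 held only Dcx with Sox11. They made up 2.89% (2.57 to 3.23), 3.64% (3.20 to 4.13), 3.06% (2.72 to 3.43) and 2.26% (1.96 to 2.60) of kept nuclei. WT with exercise was highest and APPNL-G-F with exercise lowest. Few were immature neurons: 196 were CA1-like, 127 dentate granule-like and 28 in the immature class. As a share of the class this was 3.04%, 1.25% and 77.8%, against 2.92% of all kept nuclei. It was 12.5% in CGE, 8.72% in subiculum or entorhinal, 7.36% in MGE and 6.84% in Lamp5 nuclei. In the unnamed cluster led by Ebf2 it was 26.4%. The median depth of the 1014 nuclei, 10186 UMIs, was above the 6083.5 of all kept nuclei. Thinned to 1500 UMIs, 0.205%, 0.162%, 0.358% and 0.237% qualified, with APPNL-G-F without exercise highest in place of WT with exercise. Inside against outside the set, and only as a description, the highest ratios among the stage genes with at least 20 UMIs inside were those of Calb2 (5.30 against 1.66 CPM), Sema3c (29.8 against 10.9) and Tac2 (1.96 against 0.875), and the lowest those of Vim (3.16 against 5.16), Dsp (11.1 against 17.6) and Plk5 (12.7 against 19.4).

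Igfbpl1 also marked a second, unnamed group of nuclei. The cluster led by Ebf2, Ano1 and Col6a3 held 182 nuclei, 15, 5, 130 and 32 by library, and markers of several classes were on in it. Igfbpl1 was at 94.2, 43.9, 105 and 115 CPM there and Dcx at 137, 43.9, 118 and 87.8, while Prox1 was at 8.56, 22.0, 26.2 and 7.53. Of the 236 Igfbpl1 carriers, 4, 3, 39 and 18 lay in this cluster and 30 in the immature class. Few of its nuclei held the granule lineage gene Prox1 (1, 1, 14 and 2). Over all kept nuclei Igfbpl1 gave 51, 60, 165 and 118 UMIs, or 0.669, 1.01, 3.03 and 1.83 CPM, and both APPNL-G-F libraries were above both WT libraries. Of those UMIs, 11, 4, 88 and 46 came from the Ebf2 cluster. Outside that cluster and the immature class, 28, 34, 49 and 31 carriers remained, or 0.275%, 0.523%, 0.536% and 0.357% of the other nuclei, and there WT without exercise was lowest.

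Dentate granule-like nuclei, the mature cells of the lineage, gave the comparison between groups its firmest counts, with 2975, 1925, 2548 and 2710 nuclei. In them 6 of the 9 genes had at least 50 UMIs over both libraries of each comparison, and none of the 6 differed by 1.5-fold or more in any of the 4 comparisons. Igfbpl1, Draxin and Eomes were below that minimum. The background was as follows. In APPNL-G-F over WT without exercise 13.7% of 13095 genes were at least 1.5-fold higher and 6.83% at least 1.5-fold lower, and with exercise 22.0% and 7.86% of 13149. In exercise over none, 2.29% of 13041 genes were higher and 6.60% lower in WT, and 22.4% and 19.6% of 13277 in APPNL-G-F. With 6 genes, a count of 0 says little beside these shares. The medians over all genes were -0.03, 0.20, -0.12 and 0.09 in that order. Scaling moved these figures more than the filters did. With TMM factors the median shifted by -0.19 for genotype with exercise and 0.10 for exercise in WT, with median-of-ratios factors by -0.17 and 0.12. The split of higher against lower genes became 13.2% and 12.5% or 13.8% and 12.2% in the first of these and 3.52% and 3.86% or 3.73% and 3.56% in the second. With the total taken without mitochondrial genes, Malat1 and the 50 highest genes, the splits were 16.6% and 4.64%, 16.6% and 10.2%, 2.86% and 4.87%, and 17.1% and 23.6%, and the median shifted by -0.11 for genotype with exercise and -0.13 for exercise in APPNL-G-F.

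Calb1 had the clearest differences among the 6. It was at 93.6, 73.6, 122 and 94.2 CPM in dentate granule-like nuclei, from 1033 to 1855 UMIs per library. The APPNL-G-F library was above the WT library both without exercise (log2 ratio 0.38, 0.28 to 0.48) and with it (0.36, 0.25 to 0.47), and the exercise library was below the other in WT (-0.35, -0.46 to -0.24) and in APPNL-G-F (-0.37, -0.47 to -0.27). Over the main and alternative settings these ratios ran, in that order, from 0.31 to 0.47, 0.17 to 0.42, -0.35 to -0.23 and -0.50 to -0.22. Each kept its sign, and the median over all genes was 0.20 for genotype with exercise. WT without exercise and APPNL-G-F with exercise were nearly equal. By share of nuclei the order was another, 38.5%, 32.3%, 39.2% and 42.1%, and after thinning it followed the level, 12.2%, 9.36%, 14.1% and 12.6%. Calb1 in microglia-like nuclei was 18.4, 27.2, 62.0 and 21.3 CPM, also highest in APPNL-G-F without exercise, and the part of free RNA was not tested.

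Prox1 was lower in both APPNL-G-F libraries. It was at 266, 257, 221 and 226 CPM, a log2 ratio of -0.26 (-0.33 to -0.20) without exercise and -0.19 (-0.25 to -0.12) with exercise. The exercise ratios were -0.05 (-0.11 to 0.01) in WT and 0.03 (-0.04 to 0.10) in APPNL-G-F. Of the granule-like nuclei 73.3%, 74.4%, 59.3% and 70.4% held a Prox1 UMI, and 30.6%, 30%, 25.3% and 26.0% after thinning. Both scales put the APPNL-G-F libraries below the WT libraries. Prox1 in microglia-like nuclei was 47.4, 94.2, 60.6 and 59.4.

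Sox11 stood at 24.8, 23.5, 24.5 and 18.5 CPM in dentate granule-like nuclei, so APPNL-G-F with exercise was the low library. Its log2 ratio was -0.34 (-0.56 to -0.12) against WT with exercise and -0.41 (-0.63 to -0.18) against APPNL-G-F without exercise. Dcx stood at 14.3, 12.7, 14.9 and 15.3, and the log2 ratios lay between -0.18 and 0.27. Neurod1 stood at 6.77, 6.55, 8.90 and 7.72, with 0.40 (0.02 to 0.77) for APPNL-G-F over WT without exercise. Sox4 stood at 3.97, 3.99, 5.94 and 5.18, with 0.58 (0.10 to 1.06) in the same comparison, just below the 1.5-fold line. Sox4 and Dcx were below their microglial levels, and Neurod1 overlapped its own. Igfbpl1 gave 3, 9, 10 and 15 UMIs in these nuclei, and its lowest library was WT without exercise.

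**Figure D4:**
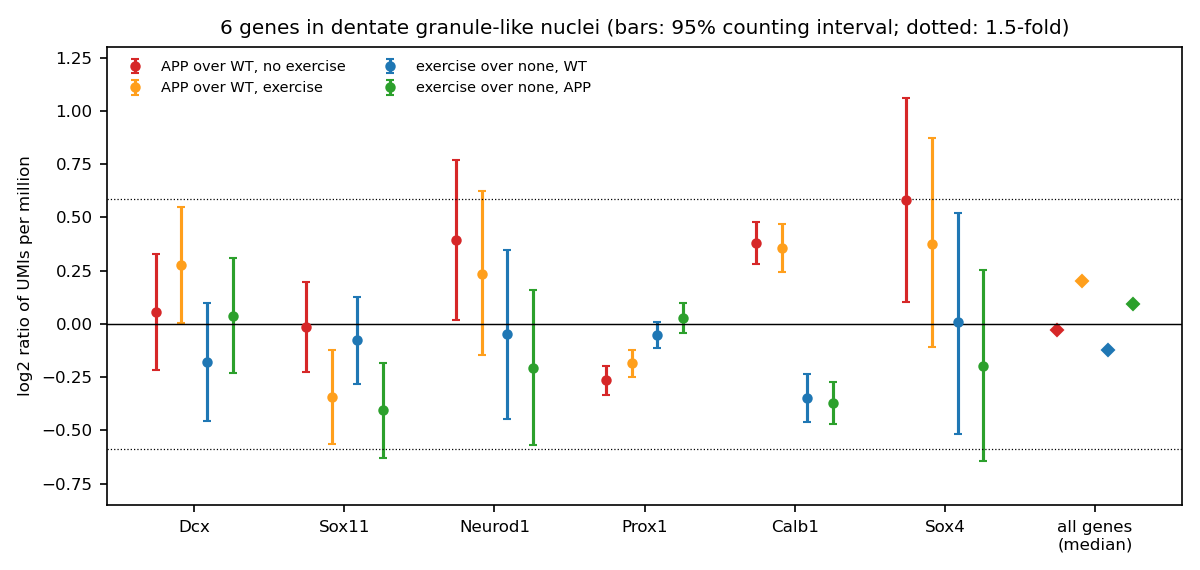
Log2 ratio of CPM in dentate granule-like nuclei for the 6 measured genes in the 4 comparisons, with 95% exact intervals for counting error; diamonds give the median of all genes and dotted lines 1.5-fold. All 24 points lie within the dotted lines, Calb1 is above 0 in both genotype comparisons and below 0 in both exercise comparisons, and Prox1 is below 0 in both genotype comparisons.

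The dentate granule-like class was made of 2 clusters whose mix differed by library. Cluster 0 held 62.7%, 54.9%, 75.0% and 24.7% of the class and cluster 1 the rest, so APPNL-G-F with exercise drew most of its nuclei from the other cluster. The part of this mix in the values above was not tested.

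Other genes of the neurogenesis stages were read in the same nuclei. Of 20 immature neuron genes 17 or 18 had enough UMIs. In APPNL-G-F over WT without exercise 13 were higher and 4 lower, 8 of them at least 1.5-fold higher, with a median log2 ratio of 0.51. Of all genes tested 47.1% were higher there and 13.7% were at least 1.5-fold higher, with a median of -0.03. With exercise 12 were higher and 6 lower (median 0.18), near the 65.7% higher and the median of 0.20 over all genes, and the list's median was -0.0092 with TMM factors. For exercise in WT 8 were higher and 9 lower (median -0.02), against 29.2% of all genes higher (median -0.12), and the list's median turned to 0.08 with TMM factors, 0.10 with median-of-ratios factors and 0.04 with the total without the highest genes. For exercise in APPNL-G-F 7 were higher and 11 lower (median -0.53), 8 of them at least 1.5-fold lower. Of all genes 55.3% were higher there and 19.6% at least 1.5-fold lower, with a median of 0.09. The actin-binding Tmsb10 was at 4.93, 6.98, 12.7 and 3.60 CPM and had the highest ratio of the list in the first comparison (1.36) and the lowest in the last (-1.81). The microtubule regulator Dpysl5 was at 24.6, 23.8, 16.0 and 30.2, the opposite pattern. Sema3c had the highest ratio for exercise in APPNL-G-F (1.29) and Marcksl1, another actin-binding protein gene, the lowest for exercise in WT (-0.66). The summed level of the 20 genes nevertheless stayed within 950 and 1064 in the 4 libraries. Comparisons with a library in common share its error, and Malat1 was also highest in APPNL-G-F without exercise.

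The 12 mature granule genes were all measured and had medians of 0.04, 0.37, -0.13 and 0.15 in the 4 comparisons. The synaptic C1q-like genes C1ql3 and C1ql2 were highest in APPNL-G-F without exercise: C1ql3 was at 150, 219, 409 and 166 CPM and C1ql2 at 20.1, 12.7, 43.7 and 16.7. The kinase gene Plk5 was at 55.9, 38.5, 37.0 and 76.1 and Rbfox3 at 684, 658, 462 and 1160, both highest in APPNL-G-F with exercise. Rasl10a, a small GTPase gene, was at 83.3, 65.9, 85.8 and 41.9. Among 8 kin of the SoxC and NeuroD factors, the medians were -0.31, 0.51, -0.18 and 0.52, and Sox5, a SoxD factor, had the widest range, with 18.0, 13.5, 9.63 and 47.6. Neurod6 had the highest ratio of this list for APPNL-G-F over WT without exercise (0.73), Tbr1 the lowest for exercise in WT (-0.66) and Bhlhe22 the lowest for exercise in APPNL-G-F (-0.93).

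The earlier stages were thinly seen. Of 12 radial glia-like genes 2 to 4 reached the minimum, of 12 proliferation genes 5 or 6 and of 12 neuroblast genes 3. In APPNL-G-F over WT without exercise all 5 proliferation genes were higher (median 0.66), 3 of them by 1.5-fold or more. Of all genes 47.1% were higher there and 13.7% at least 1.5-fold higher (median -0.03). The 5 genes ran from Mcm6, a replication factor, at 1.63 to the cyclin Ccnd2 at 0.12. The 3 neuroblast genes were lower (median -0.29), from Btg2 at -0.14 to Elavl2 at -0.75. With exercise the proliferation genes split 3 and 3 (median 0.12), with Mki67 lowest at -2.36. There 65.7% of all genes were higher (median 0.20). For exercise in APPNL-G-F 4 of 6 were lower (median -0.92), again with Mki67 lowest at -1.86, and Cenpe was highest at 1.17. In that comparison 55.3% of all genes were higher (median 0.09). Mki67 was at 3.36, 7.05, 4.97 and 1.37 CPM in dentate granule-like nuclei. In the same comparison the stem cell genes Gfap and Hopx stood at 1.21 and -1.18.

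Outside the dentate gyrus, Sox11 was at 15.4, 14.2, 20.9 and 9.48 CPM in CA1-like nuclei, 10.7, 10.1, 14.0 and 6.84 in CA3-like nuclei and 21.6, 27.6, 32.3 and 17.8 in subiculum or entorhinal nuclei. APPNL-G-F with exercise was the lowest and APPNL-G-F without exercise the highest library in all 3. Sox11 in microglia-like nuclei was 18.4, 14.6, 17.3 and 11.0, also lowest in APPNL-G-F with exercise. The CA3-like values were below these in each library and the CA1-like values below them in all but APPNL-G-F without exercise. Neither was thus clear of the microglial level, while the subiculum or entorhinal values were above it in each library. Dcx in CA1-like nuclei was 20.5, 18.9, 28.5 and 16.2, near or below its microglial 35.6, 41.8, 27.4 and 23.2, and not clear of that level either. Prox1 in CA1-like nuclei was 7.13, 11.6, 4.95 and 11.7, and in CA3-like nuclei 6.04, 18.1, 7.92 and 10.6, higher in the exercise library within each genotype. These Prox1 levels were far below the microglial 47.4, 94.2, 60.6 and 59.4. Microglia-like nuclei were shallower and also held CA1 markers at a summed 1138 to 1469 CPM, which limits them as a measure of free RNA. The part of free RNA in these values was not tested. Calb1 in CA1-like nuclei was 44.7, 28.0, 49.0 and 48.1, lowest in WT with exercise as in dentate granule-like nuclei.

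The genes most like each member over 50 profiles, each a named class of at least 50 nuclei in a library, were taken from 15766 candidates by Pearson's r of log2(CPM + 1). The profiles share libraries and depth, the immature class was too small to enter, and r is a description. Dcx was most like Frmd3 (0.91), Gm45323 (0.86) and Mast2 (0.85). Prox1 was most like Dock10 (0.88), its overlapping antisense gene Prox1os (0.82) and the granule marker Stxbp6 (0.75). Sox4 was most like the cyclin Ccnd1 (0.79), Marcks (0.78) and the oligodendrocyte precursor marker Cspg4 (0.75). Sox11 was most like Cenpv (0.73), Mmp16 (0.71) and Tmem169 (0.71), and Calb1 was most like C1qtnf4 (0.74), the granule marker Trpc6 (0.62) and Gpc4 (0.60). Neurod1 was most like Nmt1 (0.68), Card6 (0.67) and 5033421B08Rik (0.66), and Igfbpl1 was most like Smim10l2a (0.66), Usp15 (0.59) and Thap1 (0.58). Draxin and Eomes had under 200 UMIs and were given none.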

How the data were processed

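Nuclei of frozen mouse hippocampus were profiled with 10x Chromium 3′ v3.1 chemistry, per the labels' protocols, in 4 libraries. The deposited matrices hold the authors' UMI counts per gene and barcode, whole numbers with no normalization. The submitters' processing notes name mm10 and Cell Ranger 3.1.0, and the file headers name Cell Ranger 5.0.1. The design text also names chromatin accessibility, which was not used here.

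A nucleus was kept if it had 500 or more genes, 1000 or more UMIs and a mitochondrial share below 5%. Doublets were scored against simulated ones and left out at 0.8% per 1000 nuclei. Clustering used 2000 variable genes, 30 components, 15 neighbours and Leiden resolution 1 (leidenalg 0.10.2, umap-learn 0.5.12, scipy 1.17.1, Python 3.11.15). The 9 genes entered neither the variable genes nor the naming markers. Counts were summed per class and library and divided by the class total. A difference counted at 1.5-fold or more with at least 50 UMIs over both libraries. Intervals are exact at 95% (Clopper-Pearson, Poisson or conditional binomial) and PCR or sampling beyond molecule counting is outside them. edgeR 4.0.16 and DESeq2 1.42.0 supplied alternative scaling factors only. A 1.5-fold difference is a size and not a test, and a gene with few UMIs can pass it by counting error alone. With 1 library per group no significance test was made, and nuclei were not treated as replicates.

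The genes and lists were chosen with earlier results of these data known. Besides the 9 genes, those named were the 3 most alike per member, the highest and lowest ratio of each stage list in each comparison, the 3 highest and 3 lowest inside the set of nuclei with at least 2 early markers, and Ttr and Hbb-bs for free RNA. Dpysl3, Nnat, Camk2a, Icam5, Malat1 and the leading genes of clusters were named after their values were seen.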

Additional observations from a re-analysis of the deposited data

Results flagged for a closer look

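For 8 measures a genotype or exercise difference had opposite signs in the 2 settings where it could be read. In each case neither counting interval reached equality between the libraries. Opposite signs with an interval that reached equality were left out, as for Prox1 and exercise in dentate granule-like nuclei. For 2 of the 8 measures both the genotype and the exercise difference are listed, which makes 10 differences. Each setting has 1 library per arm and none of these differences was tested. The log2 ratio for exercise of the share of nuclei with at least 2 of Dcx, Sox11, Igfbpl1 and Draxin was 0.33 in WT and -0.44 in APPNL-G-F, a difference of -0.77. For Igfbpl1 over all kept nuclei it was 0.60 and -0.73, a difference of -1.33, and the Ebf2 cluster gave 11, 4, 88 and 46 of its 51, 60, 165 and 118 UMIs.

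Dcx in oligodendrocyte-like nuclei had exercise ratios of -1.15 in WT and 1.15 in APPNL-G-F, and genotype ratios of -0.83 without and 1.47 with exercise, both a difference of 2.29 (2.295). Its levels there, 15.3, 6.91, 8.61 and 19.1 CPM, lay below those of microglia-like nuclei at 35.6, 41.8, 27.4 and 23.2.

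Sox11 in subiculum or entorhinal nuclei had exercise ratios of 0.35 in WT and -0.85 in APPNL-G-F, and genotype ratios of 0.58 without and -0.63 with exercise, both a difference of -1.21. The Sox11 genotype ratio was also positive without and negative with exercise in CA1-like nuclei (0.44 and -0.59, a difference of -1.02), in CA3-like nuclei (0.39 and -0.56, a difference of -0.95) and over all kept nuclei (0.22 and -0.33, a difference of -0.54). Sox11 in microglia-like nuclei was 18.4, 14.6, 17.3 and 11.0 CPM, and the CA1-like and CA3-like levels, 6.84 to 20.9, were not clear of it. Prox1 over all kept nuclei had genotype ratios of -0.41 without and 0.11 with exercise, a difference of 0.52. Dentate granule-like nuclei held 16040 of the 22278 Prox1 UMIs, and in them both genotype ratios were below 0, at -0.26 and -0.19. The part of the class mix in this change of sign was not tested.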

How the results depend on the processing

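No paired analysis was possible because each group is 1 library, and no replicate could be left out. Of 264 alternative log2 ratios of a member in dentate granule-like nuclei, 243 stayed within the counting interval and none of those that had an interval clear of 0 changed sign. Less stable were the medians of stage lists, of which 74 of 230 moved, most often with scaling or thinning, the percents of granule-like nuclei with a member (28 of 72 moved) and the percents of kept nuclei with a pair (47 of 72). The count of members past 1.5-fold moved from 0 to 1 in 8 of 56 settings. Without a minimum of UMIs it was 1 for genotype without exercise and for exercise in WT (Igfbpl1 in both) and 1 for exercise in APPNL-G-F (Draxin). For genotype without exercise it was also 1 with the total without mitochondrial genes, Malat1 and the 50 highest genes, with 4000 variable genes and with at least 1200 UMIs (Sox4 each time), and 1 after thinning to 1500 UMIs (Neurod1). For exercise in WT it was 1 after thinning (Dcx).

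The share of nuclei with at least 2 of Dcx, Sox11, Igfbpl1 and Draxin depended most on its definition. With at least 3 of the 4, the log2 ratio was -0.039 for genotype with exercise, 1.03 for exercise in WT and 0.85 for exercise in APPNL-G-F, the last reversed. With at least 2 of Sox11, Igfbpl1 and Draxin it was 0.72 for genotype without and -0.23 with exercise, 1.24 for exercise in WT and 0.28 in APPNL-G-F, the last reversed. Thinned to 1500 UMIs it was 0.81 for genotype without exercise, and reversed to 0.55 for genotype with exercise and -0.34 for exercise in WT. Among granule-like, immature and unnamed clusters it was 0.42 and -0.041 for genotype without and with exercise and -0.020 for exercise in APPNL-G-F. The cause of these changes was not tested. For nuclei with Igfbpl1, Prox1 and Dcx or Sox11, a doublet rate of 1.6% per 1000, chosen after seeing the data as were the other settings for this share, gave 2.12 for genotype without exercise and 4.49 for exercise in WT. The ratios of the immature class share are not given as results, and their 32 alternatives stayed within the wide counting intervals. With the 9 genes among the variable genes no immature class was named. A cluster of 49 nuclei (3, 8, 13 and 25 by library) led by Pappa2, Lmx1a and Adamts18 stayed unnamed there. In it 4 immature granule neuron markers and 2 choroid plexus markers were on, each a share of 0.333 of its list. How many of the nuclei of the immature class it held was not counted.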
